A study of Mus musculus with 9 samples.

Results

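C1q macrophages are tissue macrophages that make complement component C1q, and here they were examined in single-cell RNA-seq libraries of the mouse epididymis. A member was a barcode with at least 2 of C1qa, C1qb and C1qc detected, at least 3 of Ctss, Fcer1g, Tyrobp, Ms4a7 and Cx3cr1 detected, and 8 or more unique molecular identifiers (UMIs, counted transcripts) over these 8 genes. Barcodes had 300 to 4000 detected genes, at most 20000 UMIs and less than 50% mitochondrial UMIs. Of 42087 barcodes within these limits, 2460 (5.85%) were members. The mice were wild-type C57BL/6 animals (C57BL/6J in the study's methods) without treatment, and the segments caput, corpus and cauda of 5 mice were pooled into 1 library each. There was 1 pool of 42-day-old mice (P42) and there were 2 pools of 56-day-old mice (P56 replicates 1 and 2), which gave 9 libraries. Each pool is thus 1 biological replicate for all 3 segments, and the age cannot be told apart from the single P42 pool.

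The epididymis is the duct in which spermatozoa mature and are stored, and mononuclear phagocytes lie within and below its epithelium along its whole length. C1q starts the classical complement pathway, in which it binds immune complexes and dying cells, and unlike most complement proteins it is made mainly by macrophages and immature dendritic cells rather than by the liver. C1qa, C1qb and C1qc encode the A, B and C chains, which are needed together for the secreted protein. Fcer1g and Tyrobp encode signalling adaptors of Fc and myeloid receptors, Ctss encodes the lysosomal protease cathepsin S, and Cx3cr1 is the receptor of fractalkine.

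The C1q genes lie side by side on chromosome 4 in the order C1qb, C1qc, C1qa, from position 136880126 to 136898844 of GRCm38.p6, a span of 18.7 kb. The stretches before the starts of C1qb (chr4:136886201-136886450, minus strand) and C1qc (chr4:136892937-136893164, minus strand) are shown because the members were chosen on these genes. The sequences are from RefSeq on GRCm38.p6, 5′ to 3′ on the strand of the gene and ending at the base before the gene. Capitals mark the letters GAGGAA, or TTCCTC for the other strand, the purine-rich core bound by PU.1, the myeloid transcription factor encoded by Spi1.
C1qb: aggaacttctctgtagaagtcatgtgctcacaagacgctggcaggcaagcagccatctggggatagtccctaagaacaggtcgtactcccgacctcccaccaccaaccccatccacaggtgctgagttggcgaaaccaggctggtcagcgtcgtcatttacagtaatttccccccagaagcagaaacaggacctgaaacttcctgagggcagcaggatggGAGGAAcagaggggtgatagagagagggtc
C1qc: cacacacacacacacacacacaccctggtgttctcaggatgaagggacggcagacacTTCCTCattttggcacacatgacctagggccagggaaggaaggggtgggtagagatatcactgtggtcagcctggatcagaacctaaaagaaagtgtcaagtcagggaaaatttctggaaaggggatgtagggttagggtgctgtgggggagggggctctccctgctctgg
Each stretch held 1 match, which started 30 bases before the end in C1qb and 171 bases before the end in C1qc. On both strands, 7639 of 32851 promoters of 250 bases (23.3%) held these letters, so that a match by itself is common.

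The chains of C1q took nearly fixed shares of the C1q UMIs in the members. C1qa made up 15.8% to 20.9%, C1qb 36.8% to 44.8% and C1qc 37.9% to 44.6% over the 9 libraries. All 3 genes were detected in 1848 members (75.1%), and the median member held 25 UMIs of the 8 genes of the rule. These genes chose the members, so their levels are a description only. Members just inside the rule, with exactly 8 of these UMIs, numbered 78 and had 34.8 CPM (UMIs relative to the library total) of Csf1r, whereas 66 barcodes just outside it, with 7, had 33.3 CPM. Mrc1 was at 64.4 and 62.2 CPM in these groups. Other barcodes with 8 or more rule UMIs failed on detection alone. In 345 with 2 or more C1q genes but 2 of the other genes, Csf1r was at 63.9 and Mrc1 at 247 CPM, above the members at the limit. In 215 with 1 C1q gene and 3 or more others, they were at 40.3 and 70.0 CPM. The shares given below leave these barcodes out. Over all members together the values were 173 CPM of Csf1r and 485 CPM of Mrc1, so barcodes at the limit carried less of both on either side of it.

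Macrophage genes that the rule did not use were high in the members. Cells that were not phagocytes were barcodes within the limits outside the member rule and the rule of the C1q-negative phagocytes described below. They had fewer than 2 of Tyrobp, Fcer1g and Ctss detected and numbered 36764. Barcodes in none of these groups were not used as a reference. Tyrobp, Fcer1g and Ctss are genes of the member rule, so the contrast with members is partly set by that choice. After each barcode was thinned to 2000 UMIs, Csf1r, the receptor of the macrophage growth factor CSF1, was detected in 28.0% of 2374 members and in 0.725% of cells that were not phagocytes. Adgre1, which encodes the macrophage antigen F4/80, was detected in 19.3% and 0.465%, and Cd68, a lysosomal protein of macrophages, in 27.6% and 1.5%. A second random draw gave 27.7% and 17.9% of members for Csf1r and Adgre1. The summed level of 13 macrophage identity genes was 11.1 to 64.3 times that of cells that were not phagocytes, with a median ratio of 27.5 over the libraries. Markers of other leukocytes were present at lower levels. The 9 dendritic cell markers summed to 8.24 to 107 CPM and the 6 monocyte markers to 67.6 to 1487 CPM, against 1016 to 9576 CPM for macrophage identity, and the dendritic, monocyte and B cell sums had medians of 5.78, 3.23 and 6.00 times those of cells that were not phagocytes. The 5 T cell markers summed to 0 to 49.2 CPM and the 4 neutrophil markers to 0 to 113 CPM, with the highest neutrophil sums in the P56 caudas.

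The members did not carry the same density of macrophage RNA in every library, which touches all comparisons below. The median number of rule UMIs per 10000 UMIs of a cell was 46.5, 79.6 and 85.0 in the caput, corpus and cauda at P42. It was 29.3, 59.5 and 30.4 in P56 replicate 1, and 23, 35.9 and 17.8 in P56 replicate 2. Genes with a mean level in members at least 2 times that in cells that were not phagocytes, called macrophage-enriched genes here, were picked on their level in these same members. They made up 2.68% of the UMIs of members in the cauda of P56 replicate 2 and 14.9% in the cauda at P42. Transcripts of principal cells, the main cells of the epithelium, were present in members of every library, and 8 of their markers summed to 0.440 to 0.877 times (median 0.781) the level in cells that were not phagocytes. Cell pairs under 1 barcode and free RNA were not separated. For this reason each comparison is given both ways, once scaled over all genes and once with library sizes and tests restricted to the macrophage-enriched genes. No more than 1 macrophage barcode sequence was shared by any pair of libraries, and 413 members (16.8%) had 10000 or more UMIs, against 15.2% of cells that were not phagocytes.

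**Figure D1:**
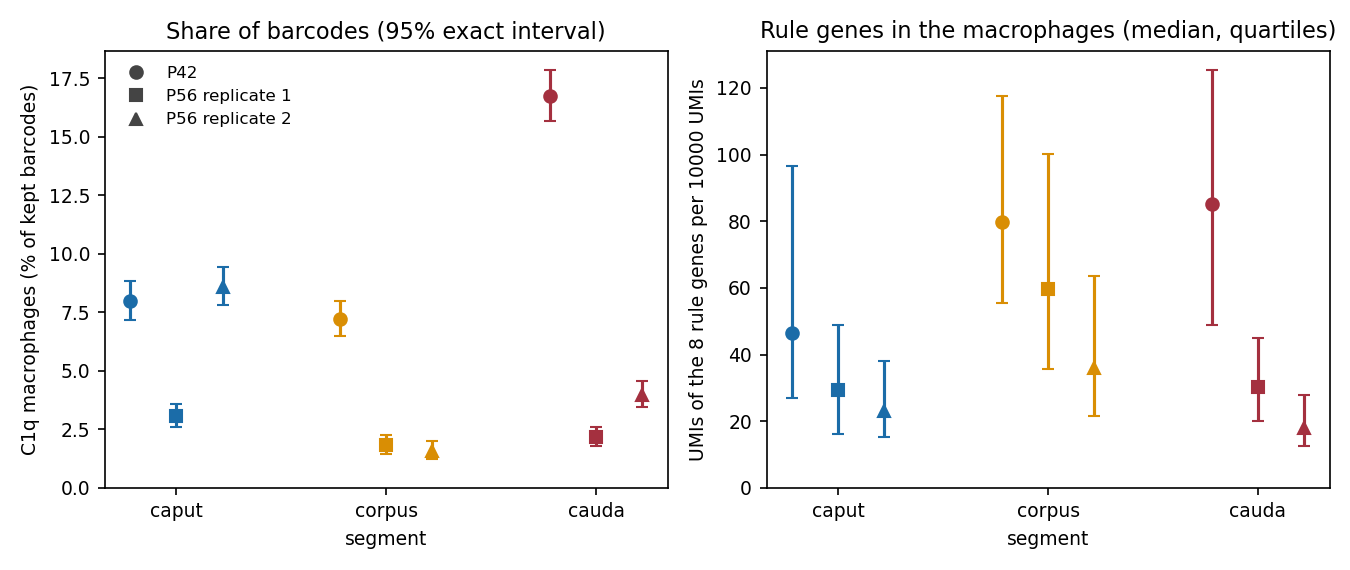
Left, C1q macrophages as a percentage of the barcodes kept in each library, with 95% exact binomial intervals, which cover counting error only. Right, UMIs of the 8 rule genes per 10000 UMIs of the member, as median and quartiles over the members of a library, for caput, corpus and cauda of the P42 pool (circles) and P56 replicates 1 (squares) and 2 (triangles). The P42 cauda has the highest share (16.7%) and the highest median density (85.0), and the cauda of P56 replicate 2 the lowest density (17.8).

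The share of macrophages varied more between pools than between segments. In the P42 pool they were 7.98% of the barcodes in caput, 7.21% in corpus and 16.7% in cauda. In P56 replicate 1 the shares were 3.06%, 1.82% and 2.16%, and in P56 replicate 2 they were 8.59%, 1.58% and 3.98%. The cauda held the highest share at P42, whereas the caput did in both P56 pools. The corpus was below the caput in all 3 pools, but at P42 this turned when barcodes were thinned to 2000 UMIs before the rule, with 3.93% in the caput and 5.71% in the corpus. Members with at least 30 rule UMIs per 10000 were 5.65% of barcodes in the caput and 6.69% in the corpus at P42, and 1.44% in both in P56 replicate 1. The segment means were 6.55% ± 3.03 in caput, 3.54% ± 3.18 in corpus and 7.62% ± 7.94 in cauda (SD, n = 3), and the exact permutation test within pools, two-sided, gave p = 0.417, where the smallest p it allows is 0.0278. Dissociation of the tissue can change such shares, which was not tested.

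Mitochondrial transcripts in the macrophages had their lowest share in the caput, a difference that missed the threshold. They were 6.41%, 7.44% and 6.68% of the UMIs of members in caput, 12.2%, 17.7% and 20.3% in corpus, and 7.69%, 18.7% and 16.1% in cauda, in the order P42, P56 replicate 1 and P56 replicate 2. This order of caput below corpus and cauda held in every pool. The means were 6.84% ± 0.53, 16.7% ± 4.13 and 14.2% ± 5.77 (SD, n = 3), with p = 0.0556 in the exact permutation test, two-sided. Cells that were not phagocytes also had the lowest share in the caput in every pool, with 6.61%, 15.0% and 11.6% in caput, corpus and cauda at P42, 6.83%, 18.6% and 17.5% in P56 replicate 1, and 6.48%, 23.1% and 15.7% in P56 replicate 2. Macrophages differed from them by −0.92 ± 1.82 points over the 9 libraries (SD, exact sign-flip permutation test, two-sided, p = 0.191), a test that takes the libraries as independent although they come from 3 pools. The difference was below 0 in all 3 corpus libraries (−2.81, −0.87 and −2.88) and in all 3 libraries of the P42 pool, and above 0 in the caput and cauda of both P56 pools.

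Which genes of the macrophages differ between the segments was asked with UMIs summed per library and with the pool as a block, and genes were called by edgeR's quasi-likelihood test where the log2 difference was at least 1 and p, adjusted by Benjamini-Hochberg, was below 0.05. Over the segments, 115 of 1011 macrophage-enriched genes tested were called (11.4%), against 1199 of 11046 genes in all (10.9%). These percentages are the background to the counts given here, and the share of macrophage-enriched genes lay near it. Of the 115, 72 were highest in the corpus, 38 in the cauda and 5 in the caput, and of all called genes 593 were highest in the caput. A gene high in the members of 1 segment alone could become macrophage-enriched through them, as Cd209g did with no UMI in the caput, so these splits and those of the pairs of segments below are partly set by that choice and are descriptions. With macrophage-enriched genes only, 61 of 677 passed (9.01%), with 27 highest in the corpus, 17 in the cauda and 17 in the caput.

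Against the caput, 117 macrophage-enriched genes were higher in the corpus and 1 was lower (11.7% of those tested, against 7.40% of all genes, of which 3.63% were higher and 3.77% lower), and 107 were higher in the cauda and 12 were lower (11.8%, against 10.8% of all genes, with 5.00% higher and 5.76% lower). Both comparisons use the same caput libraries and are not independent of each other. The median log2 difference of the macrophage-enriched genes was 0.75 in the corpus and 0.60 in the cauda, while that of all genes was −0.02 and 0.03. The scale on macrophage-enriched genes alone brought the medians to −0.02 and 0.03. It is normalised on these same genes, so a median near 0 is set by the scale. A difference shared by most of them is removed, and the balance of directions there is a description. On it 55 genes were higher and 16 lower in the corpus, and 52 were higher and 26 lower in the cauda. Of the genes called on all genes and tested again, 56 of 112 were called on both scales in the corpus and 63 of 110 in the cauda, with no sign turned. The genes described next held on both scales unless stated. The P56 replicate 1 pool weighed most on the counts. Without it 20 of 1046 macrophage-enriched genes tested were called between corpus and caput and 36 between cauda and caput. Without P56 replicate 2 the counts were 77 and 106 of 921, and without the P42 pool 172 and 84 of 550. Of all genes tested in these fits, 271 and 504 of 11358, 383 and 663 of 9735, and 1127 and 1382 of 7498 were called. Without the P42 pool the cauda had 58 genes higher and 26 lower with a median of 0.08, so the excess of higher genes in the cauda rests in part on that pool.

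**Figure D2:**
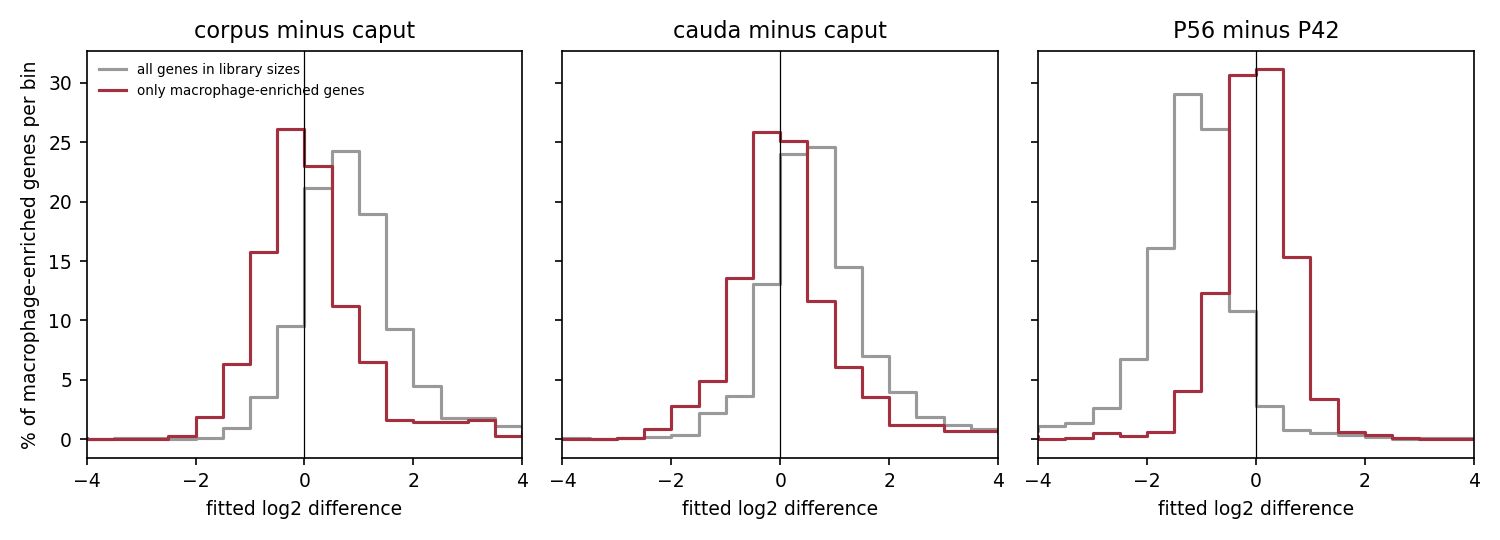
Percentage of macrophage-enriched genes per bin of the fitted log2 difference, for corpus minus caput, cauda minus caput and P56 minus P42, with all genes in the library sizes (grey) and with only macrophage-enriched genes (red). On all genes the bulk lies above 0 for the segments (medians 0.75 and 0.60) and below 0 for the age (median −1.13), and the restricted scale centres it at −0.02, 0.03 and 0.02.

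Several of the genes with the largest differences had few UMIs in the caput. Ccl8, a chemokine that attracts monocytes and T cells, was at 21.3, 9.90 and 21.7 CPM in caput, at 1697, 1711 and 1249.6 CPM in corpus, and at 2707, 1225 and 184 CPM in cauda (P42, P56 replicate 1 and P56 replicate 2, CPM on the scale of the fit). The caput libraries lay below all others. Its log2 difference was 6.35 ± 0.76 (SE, adjusted p = 0.000576, edgeR) in the corpus and 5.81 ± 0.76 (adjusted p = 0.000758, edgeR) in the cauda. Ccl8 was also found in cells that were not phagocytes, at a mean of 2.03, 23.4 and 104 CPM in caput, corpus and cauda, the caput being lowest there too. In the cauda the members held 2707, 1225 and 184 CPM of Ccl8 where cells of the same libraries that were not phagocytes held 287, 9.90 and 15.9 CPM.

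F13a1, the A subunit of coagulation factor XIII and a marker of tissue macrophages and monocytes, was at 6.04, 0 and 3.27 CPM in caput, at 375, 306 and 109 CPM in corpus and at 727, 116 and 20.1 CPM in cauda. Clec10a, a lectin for galactose-type sugars, was at 2.13, 2.97 and 1.79 CPM in caput, 161, 155 and 61.4 CPM in corpus and 255, 48.3 and 12.7 CPM in cauda. For both genes the groups of caput and of corpus or cauda libraries did not overlap. The log2 differences from the caput were 6.23 and 5.53 for F13a1 and 5.82 and 5.04 for Clec10a, in the corpus and the cauda.

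Lyve1, a receptor for hyaluronan on lymphatic endothelium and resident macrophages, was at 6.04, 1.98 and 3.27 CPM in caput, 241, 228 and 59.1 CPM in corpus and 433, 86.5 and 18.7 CPM in cauda. Cd163, which takes up haemoglobin bound to haptoglobin, was at 0.711, 1.98 and 2.38 CPM in caput, 79.4, 87.4 and 30.7 CPM in corpus and 149, 34.9 and 10.7 CPM in cauda. Within the cauda Ccl8, F13a1, Clec10a, Lyve1 and Cd163 were highest in the P42 pool and lowest in P56 replicate 2, the order of the macrophage density of these libraries. In this last library members had 20.1 CPM of F13a1 and 18.7 CPM of Lyve1, against 1.87 and 2.64 CPM in its cells that were not phagocytes. In the caput at P42 the 6.04 CPM of Lyve1 in members was below the 6.71 CPM of cells that were not phagocytes, so its level there cannot be told apart from background. The mannose receptor Mrc1 was at 71.1, 71.2 and 56.0 CPM in caput, 645, 481 and 248 CPM in corpus and 1047, 228 and 58.2 CPM in cauda, and the last of these overlapped with the caput. Mrc1 passed the test in the corpus (2.58 ± 0.57, adjusted p = 0.0215) and not in the cauda (2.03 ± 0.60, adjusted p = 0.0540, edgeR).

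**Figure D3:**
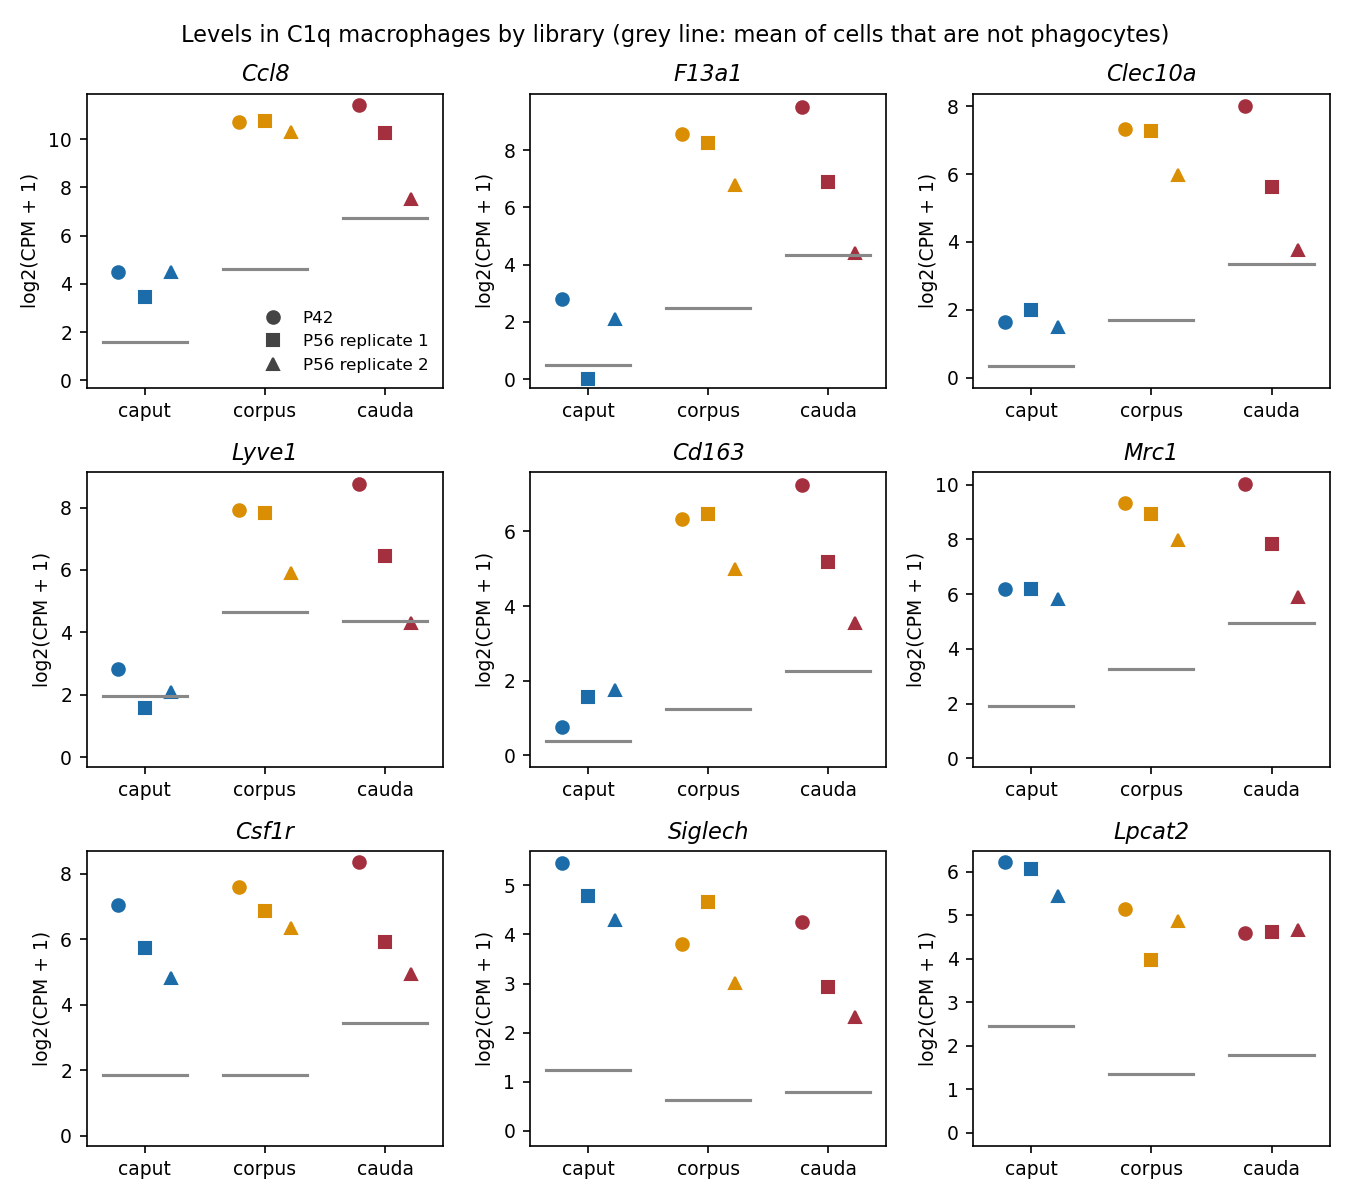
Levels of 9 genes in the C1q macrophages of each library on the scale log2(CPM + 1), by segment and pool (circle P42, square P56 replicate 1, triangle P56 replicate 2), with the mean of cells that were not phagocytes as a grey line. Ccl8, F13a1, Clec10a, Lyve1 and Cd163 are lower in all 3 caput libraries than in any other, Lpcat2 is highest in the caput, and Csf1r overlaps between the segments.

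The Cd209 genes named here, lectins related to DC-SIGN, lie together on chromosome 8 (from Cd209d to Cd209g, 266 kb). Cd209g, Cd209d and Cd209b had no UMI in any caput library. Cd209g had 64, 6 and 7 UMIs in the corpus and 438, 2 and 2 in the cauda, which against a floor of 3 counts over the caput group was at least 70.0-fold higher in the corpus and at least 135-fold higher in the cauda. Cd209d was at least 63.7-fold higher in the corpus and at least 41.5-fold in the cauda, and Cd209b at least 30.01-fold and 22.6-fold, but Cd209b was not tested among macrophage-enriched genes only. Most cauda UMIs came from the P42 pool. In the caudas of P42 and P56 replicates 1 and 2, Cd209d had 132, 4 and 0 UMIs and Cd209b had 73, 0 and 1, and over the P56 pools alone the cauda bounds were 2.21-fold for Cd209g and Cd209d, while Cd209b was below the floor. The corpus bounds there were 21.4-fold, 29.7-fold and 19.8-fold for Cd209g, Cd209d and Cd209b. Cd209f had 0, 0 and 3 UMIs in the caput and differed by 7.22 in the corpus and 6.63 in the cauda on the log2 scale. Reads shared between near-identical genes of this family could not be told apart.

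Chemokine ligands differed in part between the segments. The list was chosen with earlier results of these data known. Of 18 ligands, 10 were higher in the corpus (median log2 difference 1.99) and 9 in the cauda (median 2.13), and none was lower. Cxcl1 in both segments and Cxcl10 and Cxcl14 in the cauda were not macrophage-enriched. On the scale of macrophage-enriched genes 8 of 13 and 5 of 13 were called. Ccl2, Ccl7 and Ccl8, which attract monocytes, lie with Ccl12 within 81.2 kb of chromosome 11. Ccl7 was at 64.0, 54.4 and 30.4 CPM in caput, 420, 464 and 423 CPM in corpus and 666, 521 and 151 CPM in cauda. Its log2 difference was 3.25 ± 0.38 in corpus and 3.06 ± 0.38 in cauda macrophages, and Ccl2 differed by 2.21 ± 0.42 and 1.87 ± 0.42. The eosinophil attractant Ccl24 differed by 5.52 ± 0.96 and 5.24 ± 0.93. Ccl6 and Ccl9, which neighbour each other over 20.2 kb, differed by 3.95 ± 0.77 and 3.96 ± 0.69 in the corpus. Pf4, platelet factor 4, differed by 2.07 ± 0.47 in the corpus. Markers of other cells also differed in the members. In the corpus 1 of 3 dendritic cell markers was higher (median 1.11) and 1 of 3 myoid markers was lower (median −2.11). Of 8 principal cell markers 1 was higher and 3 were lower there (median −1.83). Of 5 monocyte markers, F13a1 and Ccr2 were higher in the corpus (median of the list 2.82), and in the cauda F13a1 and Fn1 were higher and Plac8 was lower (median 2.30). On the restricted scale Fn1 was not called (1.97) and Plac8 was not tested. Fibroblast markers were higher in 2 of 4 in corpus and 4 of 4 in cauda (medians 1.59 and 3.48). Their part in the chemokine differences was not tested.

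The stretch before Ccl8 is shown because Ccl8 differed more from the caput than the other ligands of the list that were called against it (chr11:82114935-82115184, plus strand, GRCm38.p6, RefSeq), with the same letters in capitals.
Ccl8: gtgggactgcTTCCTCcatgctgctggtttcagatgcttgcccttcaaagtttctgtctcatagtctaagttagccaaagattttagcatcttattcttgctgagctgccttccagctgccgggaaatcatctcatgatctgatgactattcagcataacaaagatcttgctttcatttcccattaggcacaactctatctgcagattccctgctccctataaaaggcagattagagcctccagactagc
The match started 240 bases before the gene. Of the genes called higher in the corpus or the cauda than in the caput, 48 of 134 with a promoter in the table held these letters (35.8%), compared with 331 of 983 macrophage-enriched genes tested (33.7%).

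Ccl3, Ccl4 and Ccl12 were not called between the segments. Ccl3, an attractant of monocytes and T cells, was at 657, 503 and 354 CPM in caput, 845, 568 and 668 CPM in corpus and 547, 812 and 430 CPM in cauda. Ccl12 was at 505, 392 and 286 CPM, at 648, 723 and 654 CPM, and at 920, 977 and 409 CPM. Ccl12 was lower in the caput than in corpus and cauda in every pool, with log2 differences of 0.83 ± 0.28 and 0.92 ± 0.28, and Ccl3 was lower in the caput than in the corpus in every pool (0.50 ± 0.28), both below the minimum of 1. Of 6 chemokine receptors tested, the monocyte receptor Ccr2 (3.39 ± 0.82) and Cxcr4, the receptor of CXCL12 (2.22 ± 0.50), were higher in the corpus, and Cxcr4 (2.12 ± 0.46) in the cauda.

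Several complement genes beyond C1q were higher in the macrophages of corpus and cauda. Of 14 tested, 6 were higher in the corpus, 5 were higher in the cauda, and none was lower (medians 1.42 and 1.75). Among those of the corpus, C4b, Cfp, C5ar1 and C3ar1 were macrophage-enriched and C3 was not, and in the cauda C4b alone was, while C3, Cd55 and Serping1, among others, were not. Fibroblast markers moved in the same direction in the members, with 2 of 4 higher in the corpus (median 1.59) and 4 of 4 in the cauda (median 3.48), and their sum ranged from 244 to 25458 CPM over the libraries. Their part in the complement genes was not tested. C4b, the next component of the classical pathway, was at 2.49, 0.99 and 0.298 CPM in caput, 50.8, 46.1 and 9.45 CPM in corpus and 118, 18.3 and 5.35 CPM in cauda, a difference of 4.83 ± 0.64 and 4.96 ± 0.60. C6, a component of the membrane attack complex that was not on the list, differed by 6.04 ± 0.74 and 4.66 ± 0.75. Cfp, which encodes properdin, the stabiliser of the alternative pathway, differed by 3.37 ± 0.72 in the corpus, and C5ar1, the receptor of the anaphylatoxin C5a, by 2.49 ± 0.54. C3ar1 passed on all genes in the corpus (1.14 ± 0.28) but was at 0.34 on the scale of macrophage-enriched genes and not called.

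Receptors for dead cells and scavenger receptors moved in part. Of 17 tested, 4 were higher and 1 was lower in the corpus, and 3 were higher and 2 lower in the cauda (medians 0.52 and 0.74). Timd4, which binds phosphatidylserine on dying cells, was at 1.07, 0.99 and 0.298 CPM in caput, 21.6, 14.6 and 4.72 CPM in corpus and 40.4, 9.98 and 2.01 CPM in cauda. Folr2, a folate receptor of resident macrophages, had no UMI in the caput and 8 UMIs in the corpus and 42 in the cauda, at least 7.27-fold and 12.8-fold higher, and was too low to be tested. All 42 cauda UMIs of Folr2 and 7 of the 8 in the corpus were of the P42 pool. The genes of this list that fell were Mfge8 in both segments, a bridging protein that was not macrophage-enriched, and Havcr2 in the cauda.

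Among the iron and heme genes, 3 of 11 were higher (Hmox1, Cd163 and the ferritin light chain Ftl1) and 1 was lower in each segment, Lcn2, a secreted siderophore-binding protein that was not macrophage-enriched. Ftl1 in the corpus was not called on the restricted scale (0.86). Hmox1, heme oxygenase 1, was at 69.0, 72.2 and 39.6 CPM in caput, 227, 248 and 151 CPM in corpus and 324, 191 and 63.6 CPM in cauda (1.80 ± 0.33 and 1.52 ± 0.32). Erythrocyte markers in the members were lower in the cauda in 4 of 4 (median −1.94) and not called in the corpus (median 0.30), and their part in the iron and heme genes was not tested. The Fc and ITAM receptors, which signal through Fcer1g and Tyrobp or oppose them, had 4 of 18 higher in the corpus and 3 higher and 1 lower in the cauda (medians 0.86 and 0.61). On the restricted scale 2 were higher in the corpus, and 2 higher and 1 lower in the cauda (medians 0.07 and 0.08). Pirb, an inhibitory receptor, differed by 3.06 ± 0.55 and 2.25 ± 0.53, and the lectin Clec4a1 by 2.06 ± 0.37 and 1.76 ± 0.36. Of 13 macrophage identity genes, Mrc1 and Cd14 were higher in the corpus and Cd14 in the cauda, but Cd14 was not called on the restricted scale in either segment (0.51 and 0.58). Csf1r, Adgre1 and Cd68 were not called. None of 8 MHC class II genes tested was called, with medians of 0.87 and 0.21.

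A smaller group was higher in the caput, and its calls depended on the pools. Without P56 replicate 1 no macrophage-enriched gene was called lower in the corpus or the cauda, where 20 and 36 were higher. Without P56 replicate 2, 0 and 3 were lower in corpus and cauda, and 77 and 103 were higher. Without the P42 pool 3 and 26 were lower, and 169 and 58 were higher. Lpcat2, an enzyme of phosphatidylcholine and platelet-activating factor synthesis, was at 73.6, 65.3 and 42.6 CPM in caput, 34.6, 14.6 and 28.3 CPM in corpus and 23.1, 23.3 and 24.1 CPM in cauda. The caput libraries lay above all others, and Lpcat2 fell by 1.17 ± 0.31 (adjusted p = 0.0491, edgeR) in the corpus and by 1.35 ± 0.30 (adjusted p = 0.0146, edgeR) in the cauda. Siglech, a sialic acid-binding receptor found on microglia and plasmacytoid dendritic cells, was at 42.7, 26.7 and 18.8 CPM in caput, 13, 24.3 and 7.09 CPM in corpus and 18, 6.66 and 4.01 CPM in cauda. It fell by 1.58 ± 0.40 in the cauda and passed in the corpus only among macrophage-enriched genes (−1.94).

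Further genes lower in the cauda than in the caput on both scales were the activating receptor Lilra5 (−1.89 ± 0.47), the inhibitory receptor Havcr2 (−1.57 ± 0.42), the Ly49 family member Klra2 (−1.41 ± 0.39), the integrin subunit Itgb5 (−1.39 ± 0.34) and Tmem86a (−1.45 ± 0.39). The transcription factor Runx1 (−1.23 ± 0.29), the cholesterol exporter Abcg1 (−1.19 ± 0.29), the signalling regulator Rgs1 (−1.10 ± 0.22) and Zfp599 (−2.34 ± 0.52) were also lower. Each of these genes was also detected most often in the caput in thinned cells that were not phagocytes. Runx1 was detected in 10.9%, 1.03% and 1.23% of these cells in caput, corpus and cauda, and in 13.5% to 18.5% of caput members. Abcg1 was found in 4.45%, 1.17% and 1.31% of them, whereas Zfp599 differed little (0.849%, 0.711% and 0.833%). Of 8 principal cell markers, 5 were lower and 1 was higher in cauda members (median −7.08). Their part in these genes was not tested. In members with at least 30 rule UMIs per 10000 on all genes, a cut chosen after seeing the data, Siglech (−1.81), Havcr2 (−1.51), Klra2 (−1.70) and Runx1 (−0.80) lost their calls in the cauda (adjusted p = 0.0642, 0.164, 0.0525 and 0.125, edgeR), as did Lpcat2 in the corpus (−1.42, adjusted p = 0.0504), and Zfp599 was not tested. The same cut took calls from genes higher outside the caput. Among them were Cd14 in both segments (1.11 and 1.04), C3ar1 in the corpus (0.96), and Hmox1 (1.20), Fn1 (2.59) and Cxcl14 (1.66) in the cauda. Of the macrophage-enriched genes called before and tested again at this cut, 73 of 109 kept their call in the corpus and 64 of 100 in the cauda. With the cut and macrophage-enriched genes only, 35 of 96 and 32 of 88 did. Among those that lost it there were Hmox1 and Cxcr4 in both segments, Ccr2 in the corpus and Pirb in the cauda. Ccl8, F13a1, Clec10a, Lyve1 and Cd163 kept it in both. Rgs1 was at 1014, 466 and 366 CPM in caput, 612.5, 367 and 307 CPM in corpus and 369.5, 251 and 191 CPM in cauda, the caput being highest in every pool. Cx3cr1 had the same order, at 198, 139 and 75.6 CPM, 138, 46.1 and 44.9 CPM, and 70.1, 31.6 and 27.4 CPM, but it is a gene of the rule and was not tested.

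Genes associated with microglia, the macrophages of the brain, were called mainly on the restricted scale. On all genes 0 of 11 were called in the corpus, and Siglech was lower and Sparc higher in the cauda, with medians of −0.12 and −0.45. On the scale of macrophage-enriched genes 2 of 8 were lower in the corpus (Siglech and Tmem119). In the cauda 4 of 8 were lower (Siglech, Tmem119, P2ry12 and P2ry13). The medians of the list were −0.91 and −1.01. All genes on that scale had medians of −0.02 and 0.03, which its normalisation sets near 0. These differences are thus relative to the other macrophage-enriched genes. P2ry12, the ADP receptor of microglia, was at 53.7, 51.5 and 30.4 CPM in caput, 51.3, 53.4 and 26.0 CPM in corpus and 68.1, 23.3 and 14.7 CPM in cauda. Its libraries overlapped and its cauda was above its caput at P42, and its call in the cauda (−1.01) rests on the restricted scale, as do those of Tmem119 and P2ry13.

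To see how many cells stood behind these levels, members were thinned to 2000 UMIs and counted where they held a UMI of either of 2 gene sets, which were put together after the values were seen and are given as a description. Any of Ccl8, F13a1, Clec10a, Lyve1, Cd163 and Mrc1 was found in 20.5%, 13.4% and 15.6% of members in caput, 68.3%, 65.3% and 39.4% in corpus, and 93.0%, 40% and 18.6% in cauda. Any of Siglech, Lpcat2, Itgb5, Tmem119, Klra2 and Lilra5 was found in 44.0%, 38.3% and 21.8% of members in caput, 20.3%, 18.1% and 12.7% in corpus, and 18.1%, 12.4% and 7.22% in cauda. At least 3 genes of the first set were held by at most 0.893% of members in any caput library, by 35.3%, 31.9% and 15.5% in corpus, and by 67.3%, 12.4% and 4.12% in cauda. Cells that were not phagocytes, thinned alike, held any gene of the first set in 1.03% to 5.07% in 7 libraries, but in 16.1% in the corpus and 50.6% in the cauda at P42. They held any gene of the second set in 6.32%, 4.07% and 11.3% in caput, corpus and cauda at P42. The values were 2.90%, 1.71% and 1.81% in P56 replicate 1, and 4.10%, 1.63% and 1.39% in P56 replicate 2. The caput was thus highest in these cells too in both P56 pools, but not at P42. A UMI of both sets was found in 216 of 2374 members (9.10%) and in 0.462% of cells that were not phagocytes. Of these members 119 were in the cauda at P42, where 16.6% of members and 5.86% of cells that were not phagocytes held both. Cell pairs and free RNA were not separated.

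**Figure D4:**
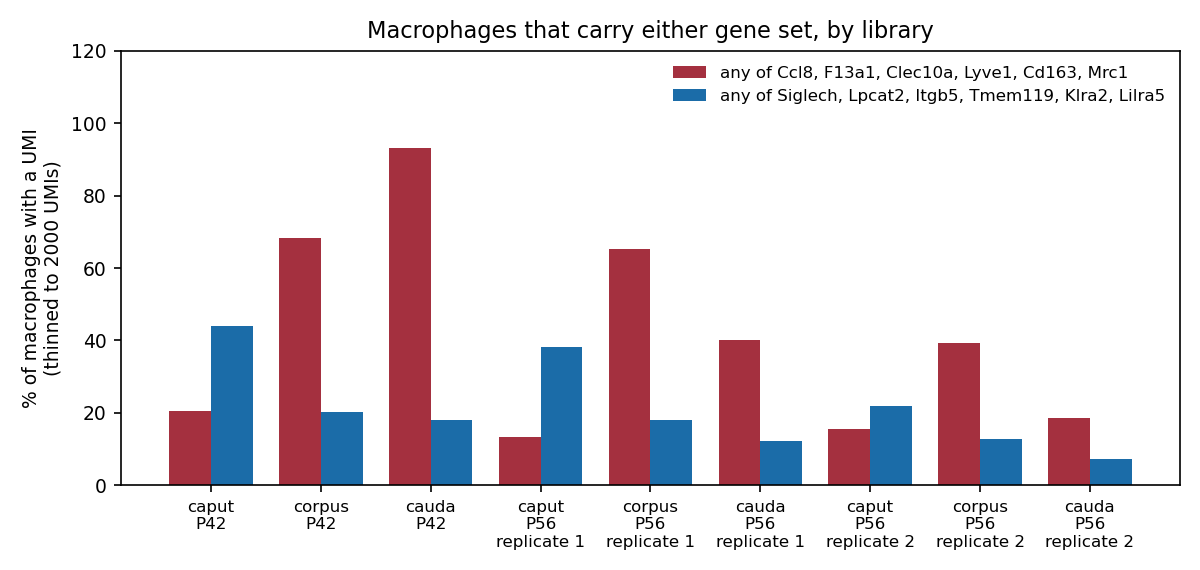
Percentage of C1q macrophages, thinned to 2000 UMIs, with at least 1 UMI of either gene set, by library. The first set (red) is carried by 13.4% to 20.5% of members in the caput and by 18.6% to 93.0% elsewhere, and the second set (blue) by 21.8% to 44.0% in the caput and 7.22% to 20.3% elsewhere.

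Between corpus and cauda few genes were called. Spp1, which encodes osteopontin, was the 1 macrophage-enriched gene called of 1011 (0.0989%, against 0.851% of all genes), and it fell by 4.0 ± 0.74 on the log2 scale from corpus to cauda (adjusted p = 0.0378, edgeR). Its CPM was 31.3, 4.95 and 8.63 in caput, 61.6, 94.7 and 234 in corpus, and 4.0, 9.98 and 13.4 in cauda, so every corpus library lay above all others, but few cells stood behind these levels. Only 93 members (3.78%) held a UMI of Spp1. In the corpus of P56 replicate 2 all 99 UMIs were in 1 member, in that of P56 replicate 1 a single member held 37 of 39, and at P42 there were 114 UMIs in 25 members. On the scale of macrophage-enriched genes no gene was called, by edgeR's quasi-likelihood test, with 21 of 677 at an unadjusted p under 0.05, and Spp1 had −3.55. Without the P42 pool 107 of 550 macrophage-enriched genes tested were called, all lower in the cauda, with a median log2 difference of −0.78. Of all 7498 genes tested in that fit 566 were called, 259 higher and 307 lower. It was not run on the restricted scale. Without P56 replicate 1 or 2 no macrophage-enriched gene was called, with 18 and 13 at an unadjusted p under 0.05.

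Macrophages of P42 and P56 mice were compared over the 3 segments in 1 model. The model had no term for the pool, so the 3 libraries of the single P42 pool counted as separate samples and the p-values for age are too small for a comparison of 1 pool with 2. On all genes 528 of 1141 macrophage-enriched genes were lower at P56 and none was higher (46.3%, against 17.0% of all genes), with a median log2 difference of −1.13. A gene high in the P42 libraries alone could become macrophage-enriched through them, so this one-sided count is a description. On the scale of macrophage-enriched genes the median was 0.02, which its normalisation on these genes sets near 0. There 15 genes were higher and 17 lower of 761 (4.20%), a balance that is a description for the same reason. Of 386 genes called before and tested again 17 were called in both and 33 changed sign. The density of rule UMIs in the members was higher at P42 in each segment, as given above. With a common age effect over the segments 379 of 1011 macrophage-enriched genes were called, against 1308 of 11046 genes in all. When each age held 1 pool, this model called 1 of 1046 macrophage-enriched genes without P56 replicate 1 and 2 of 921 without P56 replicate 2. Of all genes, 7 of 11358 and 32 of 9735 were called in these fits, so the fall was not particular to macrophage-enriched genes. Markers of other cells also fell in the members at P56 on all genes, with 4 of 4 fibroblast markers (median −3.43), 4 of 4 erythrocyte markers (median −2.57), 3 of 4 endothelial markers (median −1.90) and 4 of 5 monocyte markers (median −1.93), Ccr2 and Fn1 among the last. Markers of the epithelium were higher, with 6 of 8 of principal cells (median 1.41), 3 of 4 of clear and narrow cells (median 1.39) and 2 of 4 of basal cells (median 0.97). The part of these cells in the age differences was not tested.

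Genes lower at P56 on both scales included Fn1, Ccr2, Selenop and Tgfbr2. Fn1, fibronectin, was at 8.53, 142 and 148 CPM in caput, corpus and cauda at P42, at 0, 17.0 and 13.3 CPM in P56 replicate 1 and at 7.15, 14.2 and 8.03 CPM in P56 replicate 2. The levels of Selenop, a selenium carrier, were 94.6, 281 and 363 CPM at P42, 25.7, 85.0 and 86.5 CPM in P56 replicate 1, and 19.4, 56.7 and 58.9 CPM in P56 replicate 2. Selenop was higher at P42 in every segment without overlap. The differences on all genes and on macrophage-enriched genes were −2.60 and −1.53 for Fn1, −2.16 and −1.10 for Selenop, −2.52 and −1.45 for Ccr2, and −2.31 and −1.23 for Tgfbr2, a receptor of TGF-beta.

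A few genes were higher at P56 on the restricted scale. Acp5, tartrate-resistant acid phosphatase, differed by 0.84 on all genes, under the minimum of 1, and by 1.92 on macrophage-enriched genes (adjusted p = 0.00624, edgeR). Hilpda, a protein of lipid droplets, differed by 0.72 and 1.81. Ccl4 changed sign with the scale, at −0.04 and 1.02. In members with at least 30 rule UMIs per 10000, a cut chosen after seeing the data, Acp5 (1.31) and Hilpda (1.08) were also called on all genes, and Ccl4 (0.41) was not.

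Several of the largest age differences were in genes known from other leukocytes. Ighd (−5.43), a B cell immunoglobulin gene, had 83 UMIs in all members, of which 63 were in the cauda at P42. Cma1 (−5.01), a mast cell protease, had 490 of its 500 UMIs in the cauda at P42 and was carried by 101 members (4.11%). Xcl1 (−4.58) is a chemokine of T and NK cells. Ear2 (−4.14), an eosinophil-type ribonuclease also made by some macrophages and monocytes, was called on both scales. Cma1 was not called on the restricted scale, and the other 10 of the 12 genes with the largest differences were not tested there. The others were Kcnn4, Gapt, Siglec1, Dna2, Nfatc2, Csf2rb2, Gm37125 and Cd300lb, with 46 to 120 UMIs each over all members. The part of other leukocytes in these values was not tested.

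The population most like the members in these libraries was that of C1q-negative phagocytes, 446 barcodes with no UMI of a C1q gene, at least 2 of Tyrobp, Fcer1g and Ctss, at least 2 of the MHC class II genes H2-Aa, H2-Ab1, H2-Eb1 and Cd74, and 8 or more UMIs over these 7 genes. They numbered 15 to 140 per library. Both groups were cut by the C1q genes, but MHC class II genes were required of the C1q-negative phagocytes alone. Members also needed at least 3 of Ctss, Fcer1g, Tyrobp, Ms4a7 and Cx3cr1. Genes that vary with C1q or with MHC class II thus had to differ, and genes that vary with the other rule genes could be tilted. The genes of both rules were left out of the test. Macrophage-enriched genes made up 1.84% to 8.68% of the UMIs of C1q-negative phagocytes, less than in members in every library (2.68% to 14.9%). Of 684 macrophage-enriched genes, 239 were higher in C1q macrophages and 32 lower (39.6%, against 4.30% of all genes, with 3.48% higher and 0.817% lower). As macrophage-enriched genes were picked for their level in C1q macrophages, their direction here is partly set by that choice and their share is a description. With macrophage-enriched genes only, 132 were higher and 62 lower of 698 (27.8%). Without the P42 pool 91 of 318 macrophage-enriched genes tested were called, and 97 of 4901 genes in all, so fewer genes were also tested there.

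Most macrophage identity genes were higher in the C1q macrophages. Of 13 identity genes 10 were higher and none was lower (median 2.37, against 0.71 for macrophage-enriched genes and −0.01 for all genes). Csf1r differed by 3.18 ± 0.22, Adgre1 by 2.95 ± 0.23, Mrc1 by 3.31 ± 0.20 and the high-affinity IgG receptor Fcgr1 by 3.05 ± 0.34, each higher in 9 of 9 libraries. Csf1r ranged from 27.1 to 327 CPM in the C1q macrophages and from 0 to 34.6 CPM in the C1q-negative phagocytes. Of 17 myeloid transcription factors 6 were higher, among them the macrophage factor Maf (3.09 ± 0.21), while Spi1 was not called. Of 12 growth factor ligands and receptors 6 were higher, and 3 of 9 on the restricted scale.

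Receptors that act with the rule genes, and genes of uptake, showed the same direction. The rules for Fcer1g and Tyrobp differed between the groups, so the direction of receptors that signal through them is partly set by that choice. Of 18 Fc and ITAM receptors 15 were higher, among them Trem2, a lipid receptor that signals through Tyrobp (3.87 ± 0.32), the Fc receptor Fcgr3 (2.45 ± 0.18) and Lilra5 (3.91 ± 0.63). Of 16 genes for uptake of dead cells 11 were higher (median 2.25), such as Timd4 (4.26 ± 0.62) and the scavenger receptors Msr1 (3.61 ± 0.41) and Cd36 (2.61 ± 0.22). The receptors for complement fragments C3a and C5a, C3ar1 and C5ar1, differed by 3.97 ± 0.25 and 4.10 ± 0.36. C3ar1 was at 69.1 to 251 CPM in C1q macrophages and at 0 to 20.4 CPM in C1q-negative phagocytes, without overlap.

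Of 18 chemokine ligands, 12 were higher and 2 lower, Ccl5 and Cxcl9, in the C1q macrophages (median 1.93). Ccl24 differed by 5.21 ± 0.42, Ccl8 by 5.13 ± 0.33, Pf4 by 4.33 ± 0.24, Ccl12 by 3.70 ± 0.27, Ccl7 by 3.66 ± 0.23, Ccl2 by 2.21 ± 0.18 and Ccl3 by 2.19 ± 0.16. Of 22 lysosomal genes 10 were higher, with the protease Lgmn at 2.42 ± 0.17, and of 11 iron and heme genes 7 were higher, with Hmox1 at 2.60 ± 0.16. The list also held Hpgds, a prostaglandin D synthase that is no gene of iron or heme metabolism, at 3.68 ± 0.31. Apoe, the lipid carrier apolipoprotein E, differed by 2.11 ± 0.22. Of 9 microglia-associated genes 5 were higher, with P2ry12 at 3.38 ± 0.40, Gpr34 at 2.96 ± 0.34 and Fcrls at 2.51 ± 0.23. The 12 genes with the largest differences also held Clec5a (7.10 ± 1.01), a receptor that signals through Tyrobp, and Chp2 (4.48 ± 0.39). On the scale of macrophage-enriched genes fewer were called in most lists. There 8 of 12 identity genes, 10 of 18 Fc and ITAM receptors, 8 of 11 genes of uptake, 4 of 13 lysosomal genes, 3 of 10 transcription factors and 5 of 7 iron and heme genes were higher, with none lower, and of 14 chemokine ligands 10 were higher and 1 lower. Of 7 microglia-associated genes 4 were higher and Selplg was lower there, and of 7 complement genes 3 were higher and Itgax was lower.

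The genes lower in C1q macrophages included several of dendritic cells and monocytes. The C1q-negative phagocytes were chosen for MHC class II genes, so the direction of genes that vary with these is partly set by that choice. Cd209a, a lectin of dendritic cells, fell by 3.0 ± 0.39 and was lower in 9 of 9 libraries, with 0 to 36.2 CPM in C1q macrophages and 10.2 to 156 CPM in C1q-negative phagocytes. Xcr1 (−2.51 ± 0.53), the receptor of cross-presenting dendritic cells, Ccr7 (−2.35 ± 0.52), the receptor for migration to lymph nodes, and the monocyte antigen Ly6c2 (−2.78 ± 0.41) were lower. H2-Ob, which tunes MHC class II loading (−2.41 ± 0.50), Cbfa2t3 (−1.55 ± 0.25) and S100a4 (−1.25 ± 0.33) were lower too. Cbfa2t3 and S100a4 were lower in 9 of 9 libraries, Xcr1 in 7, Ly6c2 and H2-Ob in 6 and Ccr7 in 4, and Ccr7 had a UMI in 20 members. Of 5 dendritic cell markers tested 3 were lower and none was higher, and of 6 monocyte markers 2 were lower and 1, F13a1, was higher (3.61 ± 0.19).

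**Figure D5:**
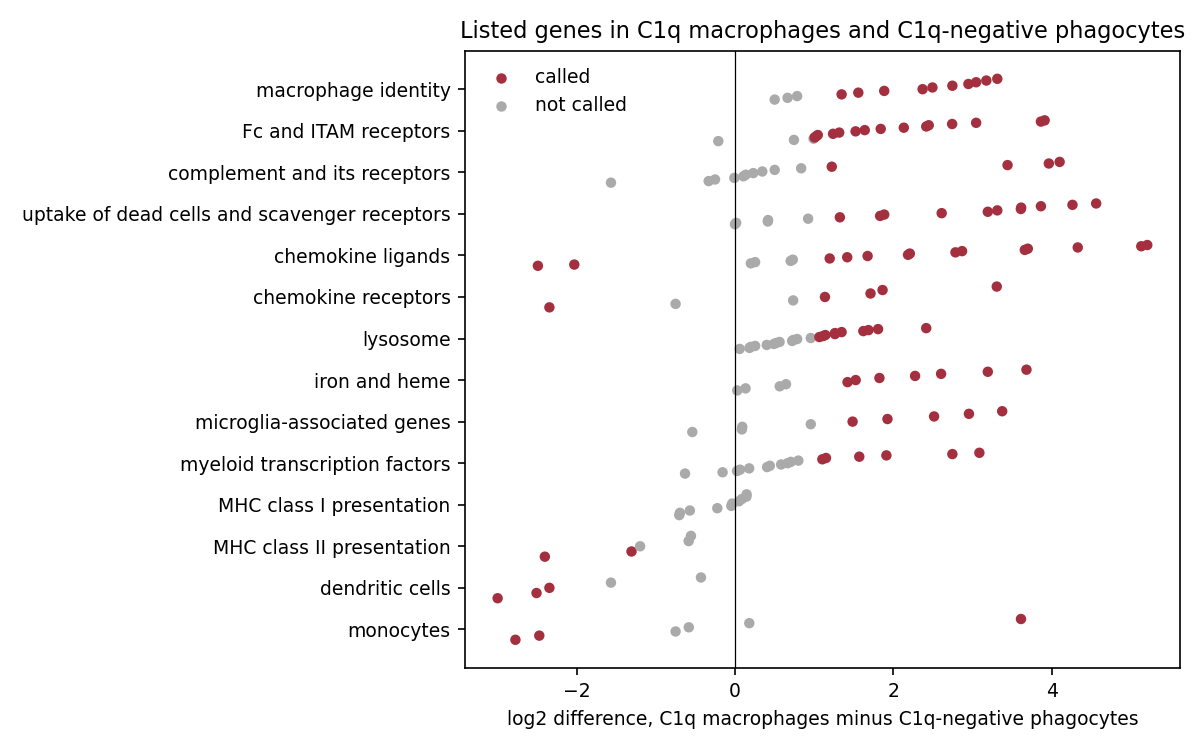
Fitted log2 differences of listed genes, C1q macrophages minus C1q-negative phagocytes, with 1 point per gene tested and called genes in red. Most called genes lie above 0, and the called genes of the dendritic cell list, and of the MHC class II list, lie below it.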

How the data were processed

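Single-cell RNA-seq libraries were made on a microwell chip from 3 segments of 3 pools of mice, 9 libraries in all. The authors deposited raw UMI counts per gene and barcode, made, per the submitters' processing notes, with STAR 2.7.3a, UMI-tools and GRCm38.p6. Members and gene lists were chosen with earlier results of these data known. Barcodes were filtered and members picked by the rule of the report, and UMIs were summed per library. Library totals were 23114756 to 50655384 UMIs, and members held 16347428 UMIs. Sums were tested with edgeR 4.0.16 (quasi-likelihood, TMM, Benjamini-Hochberg, R 4.3.3) with segment and pool as terms for segments, library and population for phagocytes, and a mean per segment and age for age, the contrast averaged over segments. Age without a pool used a common age effect. Genes at low counts were filtered out. DESeq2 1.42.0 was an alternative. Shares were tested in Python 3.11.15 (scipy 1.17.1). Segments of 1 pool come from the same mice by the study's design, and 7 of 9 same-pool pairs had deviations correlated over 0.1 (0.033 to 0.558). Of pairs from different pools, 4 of 18 did (−0.466 to 0.293). The same-pool values were 0.373 to 0.558 at P42, 0.033 to 0.183 in P56 replicate 1 and 0.151 to 0.405 in P56 replicate 2. Genes were named as the 12 with the largest log2 difference each way among called macrophage-enriched genes of 1 direction in every pool, segment or library, together with members of the lists. On simulated data holding 200 changed genes (log2 fold 2), 74.5% were recovered for the segments, 82% for age and 71% for C1q-negative phagocytes, with 7, 13 and 3 false calls. The simulated libraries were drawn independently, without a pool effect or differences in density, so these values do not give the recovery in the real libraries. Intervals and floors cover counting error only. No doublet caller was run. Some genes of the lists are not reported here by name.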

Additional observations from a re-analysis of the deposited data

Results flagged for a closer look

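The difference of the macrophage share between cauda and caput took opposite signs in the pools. It was 8.75 percentage points in the P42 pool, where the cauda was higher, and −0.90 and −4.61 points in P56 replicates 1 and 2. The difference between the ages was not tested, since there was 1 pool at P42.

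Outside the limits on barcodes, 159 barcodes carried the gene pattern of C1q macrophages and entered no comparison. Of these, 142 had more than 4000 genes, 106 had more than 20000 UMIs and 3 had 50% or more mitochondrial UMIs, and their median was 21904 UMIs.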

How the results depend on the processing

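Counts of called macrophage-enriched genes depended on the number of pools and on the scale. They are given for all segments, corpus against caput, cauda against caput and cauda against corpus, in this order, where the reported counts were 115, 118, 119 and 1. Without a filter on low counts they were 246, 216, 216 and 16, and on macrophage-enriched genes only 61, 71, 78 and 0. Without the pool as a block, that is without the pairing of segments, they were 29, 34, 46 and 0, and the C1q-negative comparison without its library term called 40 genes in place of 271. The filter on low counts follows the model, so fewer macrophage-enriched genes were tested there (883 for 1011, and 293 for 684). The exact permutation tests without this pairing gave p = 0.689 for the macrophage share and p = 0.0929 for the mitochondrial share. Leaving out 1 pool gave 20 to 215, 20 to 172, 36 to 106 and 0 to 107 genes, 1 to 2 for age (528 reported, and 379 with the common age effect that these fits used), and 91 to 278 for C1q-negative phagocytes. Fewer samples alone change such counts, and age could not be fitted without the P42 pool. The number of macrophage-enriched genes tested also changed, from 550 without the P42 pool to 1046 without P56 replicate 1 for the segments. Age called 32 genes on macrophage-enriched genes only and 285 with DESeq2, which called 3 between cauda and corpus.

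With members of at least 30 rule UMIs per 10000, an alternative chosen after seeing the data, the counts were 76 for all segments, 75 for cauda against caput and 196 for age. Combined with macrophage-enriched genes only they were 42, 50, 36 and 0 for the segments, 13 for age and 132 for C1q-negative phagocytes. The age difference of Ccl4 turned from −0.04 to 1.02 on macrophage-enriched genes, 0.075 with at least 12 rule UMIs, 0.057 without P56 replicate 2 (−0.12 without P56 replicate 1), 0.41 with dense members, and 1.10 with dense members on macrophage-enriched genes. The segment with the highest macrophage share turned from cauda to caput without the P42 pool, with a range between segments of 4.13 points (4.13 to 5.96 over the pools left out). The cause of these changes was not tested. Of 1584 values of named genes under alternatives, 1357 kept direction and call, 197 lost the call, 25 gained it and 5 turned sign. The corpus kept the highest mean mitochondrial share under the alternatives run, and without 1 pool the exact permutation test could not reach p below 0.167. With 3 pools, small differences were not detectable.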

Other observations

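Stress and cytokine genes in the C1q macrophages were higher in the cauda than in the caput in part. Of 16 immediate early genes, which respond within minutes to stimulation or handling, 9 were higher in the cauda and 3 in the corpus (medians 1.09 and 0.96), and 0 of the 3 that were macrophage-enriched passed on the scale of macrophage-enriched genes. The other 13 were not macrophage-enriched, and fibroblast markers were higher in 4 of 4 in the cauda (median 3.48), whose part was not tested. Of 16 inflammatory cytokine and NF-kB genes tested, 4 were higher in each segment, among them Tnfaip3, an inhibitor of NF-kB, with log2 differences of 1.51 in the corpus and 2.11 in the cauda. None of these held on the restricted scale (0 of 10). Of 18 interferon response genes, 2 were higher in corpus and 4 in cauda, and Ifi27l2a held on both scales with 2.41 and 1.66, but in members with at least 30 rule UMIs per 10000 it was not called in the cauda (1.33, adjusted p = 0.0672, edgeR).

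Among genes of cytokines and innate sensors, 7 of 13 were higher in C1q macrophages than in C1q-negative phagocytes (median 1.27), and 3 of 10 on the restricted scale, with Il1a at 2.39 and the Toll-like receptors Tlr7 at 2.43 and Tlr2 at 2.14. The anti-inflammatory cytokine Il10 was also higher, at 3.23. None of 16 immediate early genes and none of 10 cell cycle genes was called in this comparison by edgeR.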
